A study of Drosophila melanogaster with 16 samples.

Results

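Insulation boundaries near the centromeres and on the Y chromosome were examined in the control line of a Micro-C study of Drosophila melanogaster embryos. Members were the boundaries that start anywhere on Y, beyond 22 Mb on 2L, beyond 23 Mb on 3L, beyond 22.5 Mb on X or before 4.5 Mb on 3R (dm6 coordinates). After 14 repeated entries were removed, 337 of the 2020 boundaries of the control list met this rule: 90 on Y, 28 on 2L, 83 on 3L, 33 on X and 103 on 3R. The rule used position alone. The 1250 boundaries on the remaining, distal parts of the same 4 arms served as the comparison, and the 16 boundaries of chromosome 4 were set beside them. The 417 boundaries of 2R, those near its centromere included, belonged to neither set.

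Micro-C maps contacts between chromosomal sites after crosslinked chromatin has been cut between nucleosomes by micrococcal nuclease. The series holds 16 samples of embryos in nuclear cycle 14 (nc14), collected over 45 min and aged for 2 h. The 2 control samples came from the yw line, whose genotype is labelled WT, and the other 14 carried edited genotypes that were not analysed here. The boundary list and the loop table are features of the yw line with 1 value per feature and no column per sample. No value below therefore has a replicate error or a test, the read depth behind each bin is unknown, and all differences between regions are descriptions. Embryos were pooled from several collections, and the labels used here give no sex, so the share of embryos with a Y chromosome is not known.

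A boundary is a position across which contacts are fewer than on either side, and it separates neighbouring domains of the contact map. Pericentromeric heterochromatin is rich in satellite repeats and transposable elements, carries methylated histone H3 lysine 9 and the protein HP1, and is assembled in the early embryo around the stage studied here. Its few genes often have very long introns full of repeats. The Y chromosome of this species is almost wholly heterochromatic, and its protein-coding genes act mainly in the male germ line.

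The proximal and Y boundaries had higher strengths than those of the distal arms. Strength is the deposited insulation score of a 400 bp bin, on a scale that the sources do not state, and the lowest value in the distal arms was 1.2502. The 337 members ran from 1.26 to 10.49 with a median of 2.00 and quartiles of 1.57 and 2.92. The 1250 distal boundaries had a median of 1.62, with quartiles of 1.41 and 1.91. A strength over 3 was reached by 78 members (23.1%) and by 27 distal boundaries (2.16%), and a strength over 5 by 19 (5.64%) and 2 (0.16%). Of the 10 highest strengths of the whole list, 8 belonged to members, 5 of them on Y, 2 on 3R and 1 on X. Among the top 100 strengths 62 were members. The 16 boundaries of chromosome 4, which is also largely heterochromatic, had a median of 1.70 and none over 3. Of the 417 boundaries of 2R, which lie outside both sets, 26 (6.24%) were over 3.

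The proximal part of each of the 4 arms had a higher median than its distal part, by different amounts. Y, which belongs to the members as a whole, had the highest median, at 2.39 (quartiles 1.65 and 3.69), with 35 of its 90 boundaries over 3. On 2L the median was 2.22 against 1.65 in the distal part, and on X it was 2.21 against 1.64. The highest value on 2L was only 3.40, whereas 10 of the 33 boundaries of X were over 3. On 3R the median was 1.87 against 1.62, with 23 of 103 over 3. On 3L it was 1.73 against 1.55, with 8 of 83 over 3. The ranges of all regions overlapped those of the distal arms. At the limits set by the rule, the nearest boundaries had 1.42 inside and 1.73 outside on 2L, 1.31 and 1.68 on 3L, 1.60 and 1.50 on X, and 1.85 and 1.94 on 3R.

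**Figure D1:**
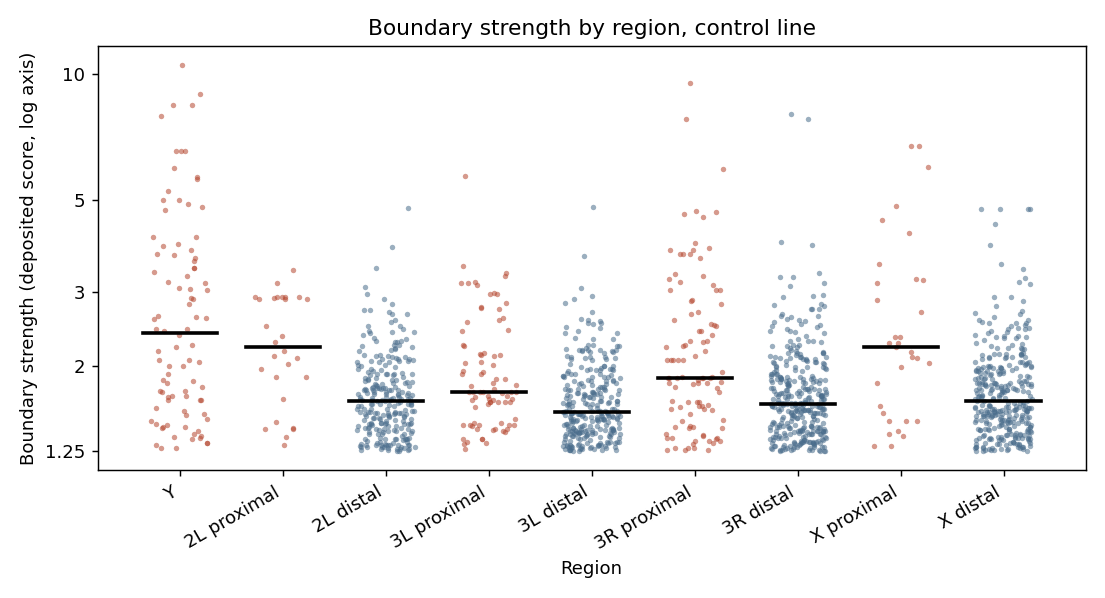
Strength of every boundary (deposited score, log axis) on Y and in the proximal (red) and distal (blue) parts of 2L, 3L, 3R and X; each point is 1 boundary, points are spread sideways for visibility, and black bars are medians. The medians of the red groups, from 1.73 on 3L to 2.39 on Y, lie above those of the blue groups, and the highest points are on Y and 3R.

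The proximal and Y boundaries were also closer together. They numbered 21.5 per Mb over 15.7 Mb, against 13.1 per Mb in the distal arms. The density was 31.8 per Mb on X, 24.5 on Y, 22.9 on 3R, 19.2 on 2L and 16.6 on 3L, and each of the 4 arms was denser than its distal part, where the values ran from 11.8 on 2L to 15.1 on X. The median distance from the start of 1 boundary to the start of the next was 11.8 kb (quartiles 3.60 and 48.9 kb, 332 spacings) against 40.8 kb (14.4 and 102.3 kb, 1246 spacings). By region the medians were 6.00 kb on 3R, 11.2 kb on Y, 14 kb on both 3L and X, and 31.2 kb on 2L. These densities and distances count every bin of the runs of equal strength, described below. Counting each run as 1 boundary left 283 of 337 members and 1224 of 1250 distal boundaries. By region it left 85 of 90 on Y, 81 of 103 on 3R, 68 of 83 on 3L, 28 of 33 on X and 21 of 28 on 2L. Densities were not computed on that count. The pooled median distances were then 21.4 kb for members and 42.8 kb for the distal parts. That of 3R was 22.0 kb, longer than those of Y (12.4 kb) and X (15.2 kb).

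Short spacings are described here in 2 ranges. In the first, neighbours less than 2.4 kb apart, all 50 member spacings joined boundaries of exactly equal strength, described below as runs. So did 25 of the 26 distal spacings of that length. In the second, from 2.4 to 4.8 kb, there were 71 of 332 member spacings (21.4%) and 67 of 1246 distal spacings (5.38%). This range was chosen after the spacings were seen, and the member counts show no break at its upper end. The member share was also above the distal share at each step from 5.2 to 7.2 kb, as at 5.6 kb with 1.81% against 0.80%. Such close pairs made up 24.4% of spacings on 3L, 23.6% on Y, 21.6% on 3R and 18.8% on X, but only 2 of 27 on 2L. On 2R, outside both sets, they made up 9.13%. Above 2 kb the most frequent spacing was 4.40 kb in both sets, with 18 member and 16 distal spacings. The left boundary was the stronger in 37 pairs and the right in 33, with 1 equal pair, and the median ratio of the stronger to the weaker was 1.30. In 27 pairs both boundaries lay inside the same gene, 12 of them inside the myosin gene Myo81F. The strongest boundary of the whole list, in the Y gene ORY, stood 4.40 kb from a boundary of strength 3.87.

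**Figure D2:**
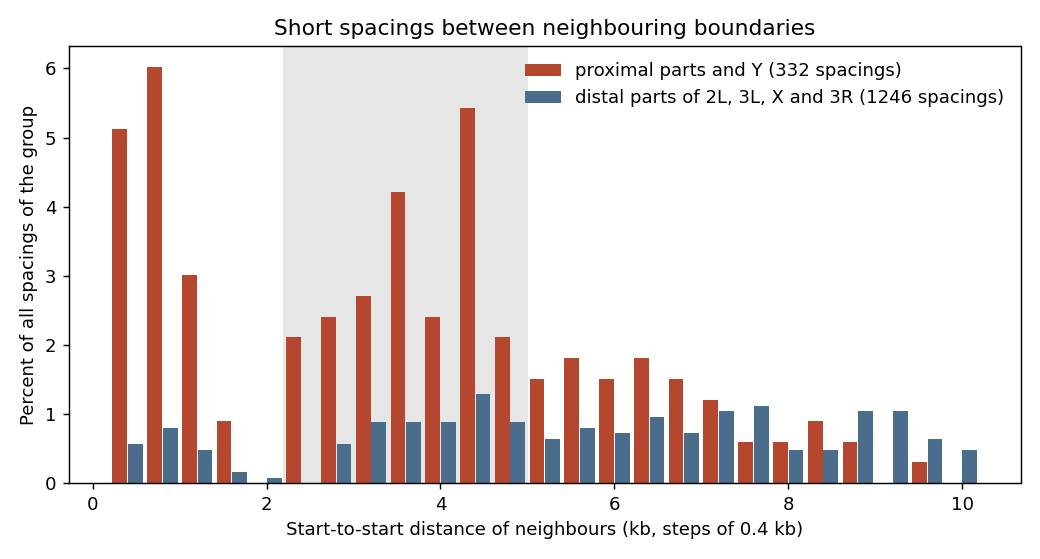
Percent of all start-to-start distances between neighbouring boundaries at each step of 0.4 kb up to 10 kb, for the proximal parts with Y (red, 332 spacings) and the distal parts of the arms (blue, 1246 spacings); grey marks 2.4 to 4.8 kb. The red bars are taller below 2 kb, within the grey range and at each step from 5.2 to 7.2 kb. Within the grey range they add up to 21.4% against 5.38%. Below 2.4 kb, all 50 red and 25 of 26 blue spacings join boundaries of equal strength.

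Dense clusters alternated with long empty intervals. Of the member spacings, 20 (6.02%) exceeded 200 kb, against 112 (8.99%) of the distal spacings. These gaps lay in 15.7 Mb and 95.1 Mb. The member share is lowered by the many short spacings in its total of 332, 50 of them inside runs. The longest gap ran for 473.6 kb on Y, from 1999601 to 2473201, where the next boundary lies in the WD-repeat gene WDY. Another of 457.6 kb lay on Y from 1088801 to 1546401. On 3R a gap of 390.0 kb ended at 2943601 inside Pzl, a gene related to the Piezo mechanosensitive channels. On 3L gaps of 373.6 and 347.2 kb occurred, and the second ended at 24330801 inside nvd, which encodes an oxygenase of ecdysone synthesis. Between neighbouring members of X no gap exceeded 68.4 kb. Distances that cross a limit of the rule were not counted as spacings. On X the last distal boundary started at 22481601 and the first member at 22908401, so a long empty interval lay across that limit.

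Runs of equal strength were frequent. A run is a set of at least 2 neighbours in the list with the same deposited strength. The proximal and Y boundaries held 28 runs with 82 boundaries (24.3%), and the distal parts 13 runs with 39 (3.12%). The share in runs was 35.7% on 2L (10 boundaries), 32.0% on 3R (33), 27.3% on X (9), 25.3% on 3L (21) and 10.0% on Y (9). Of the 28 runs, 10 had 2 bins, 14 had 3 and 4 had more. In 24 runs each step was at most 2 kb, and these extended over 0.8 to 4.0 kb. The median strength of boundaries in runs was 1.73, and that of boundaries outside them 2.11, but on Y (4.08 in runs, 2.22 outside) and 2L (2.91 and 2.05) the order was the opposite. Of the 6 repeated entries among members, 5 lay in runs.

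Runs lay at gene ends about as rarely or as often as the boundaries of their region do. Among members 4 of the 28 (14.3%) came within 1 kb of an end of a protein-coding gene, and 11 lay within gene bodies. In the distal parts 10 of 13 runs (76.9%) did. The shares over all boundaries were 8.61% and 87.0%. On 2R, which belongs to neither set, 9 of the 11 runs lay below 5 Mb, and 0 of these 9 were near a gene end. The runs of 2R held 28 boundaries, or 6.71% of those on that arm. The longest compact runs had 5 bins. One extended from 22586801 to 22589200 on 2L at strength 2.92, 958 bp from Slmap, which encodes a membrane-associated protein. The other extended from 23658401 to 23662400 on 3L at strength 1.63 inside AGO3, an Argonaute gene of the piRNA pathway that silences transposons. A run of 4 bins and strength 2.07 covered an end of CG41099 on 3R, from 3867601 to 3869600. Myo81F held 4 runs and Pzl held 2. The strongest run, of 2 bins at 6.71, started at 23318801 on X, and a run of 3 bins at 6.53 started at 354001 on Y inside kl-3.

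In 4 runs a larger step separated bins of the same strength. The first, with 6 bins of strength 1.73, extended over 28.4 kb on 3L from 24950401 and included both bins at ND-AGGG, which encodes a subunit of respiratory complex I. The second joined bins 33600 bp apart on X from 23494401 at 1.29. On Y, bins 93600 bp apart from 1596001 shared 1.65, the second of them inside Ppr-Y, and bins 4800 bp apart from 2641201 shared 3.42. Whether the equal values of distant bins share a source was not tested.

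Members lay near gene ends far less often than the distal boundaries. Only 29 members (8.61%) lay within 1 kb of an end of a protein-coding gene, against 1088 (87.0%) in the distal parts. Few genes are available there: the regions held 191 protein-coding genes, or 12.2 per Mb, against 114 per Mb, and 4.497% of all 400 bp bins were as near to a gene end, against 30.02%. The share of boundaries exceeded the share of bins by a factor of 1.91 in the members and of 2.90 in the distal parts. Seen from the genes, 29 of the 191 (15.2%) had a boundary within 1 kb of an end, against 18.2% of 10825 distal genes. Another 112 members (33.2%) lay inside bodies of protein-coding genes, where 39.6% of the bins lay, and 196 (58.2%) were intergenic. Intergenic here means away from protein-coding genes, and some of these boundaries lay at noncoding genes. In the distal parts only 8.32% lay inside bodies, which took up 48.1% of bins, and 4.64% were intergenic. The median distance to the nearest end of a protein-coding gene was 48.0 kb for members and 0 for distal boundaries.

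The regions differed in this respect. On 3L, 9 of 83 boundaries (10.8%) were near a gene end, 3.36 times the share of bins, and on 3R 13 of 103 (12.6%), 2.63 times. On 2L 4 of 28 (14.3%) were near an end, 1.46 times the share of bins. On Y 2 of 90 (2.22%) and on X 1 of 33 (3.03%) were, at 0.935 and 0.321 times the share of bins. With noncoding genes included, the shares were 17.8% on Y, 15.2% on X, 21.4% on 2L, 13.3% on 3L and 12.6% on 3R. The share of bins was not computed for that set of genes. On chromosome 4, 10 of 16 boundaries (62.5%) were near a gene end, where 24.4% of bins were. On 2R, outside both sets, 282 of 417 (67.6%) were, where 28.7% of bins were. The median strength of members was 1.73 near ends of protein-coding genes, 1.89 inside their bodies and 2.08 between them. This order did not hold in each region: on Y the medians were 2.65, 2.45 and 2.37, and on 3L they were 1.66, 1.91 and 1.73.

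**Figure D3:**
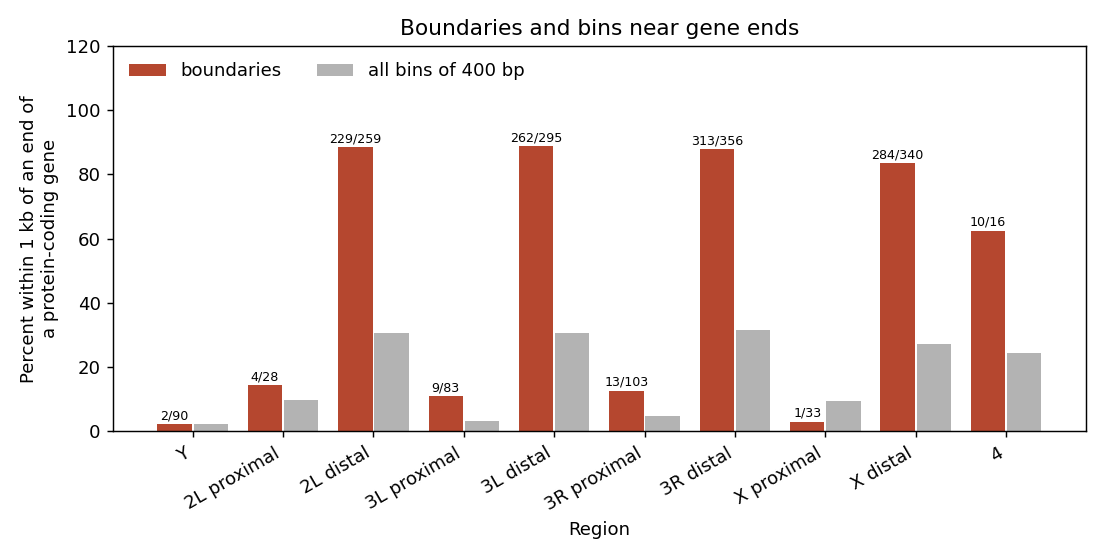
Percent of boundaries (red, with the counts above the bars) and of all 400 bp bins (grey) that lie within 1 kb of an end of a protein-coding gene, by region. The red bars stay at or below 14.3% on Y and in the proximal parts and reach at least 83.5% in the distal parts, with chromosome 4 at 62.5%.

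Very long genes carried boundaries in their bodies at nearly the density of the regions around them. The 14 protein-coding genes of at least 100 kb in these regions held 94 boundaries in 5039 kb, or 1.87 per 100 kb, and 13 of them held at least 1. The regions as a whole had 2.15 per 100 kb. The 62 genes of that length in the distal parts held 35 boundaries in 8645 kb, or 0.405 per 100 kb, where the distal parts as a whole had 1.31, and 23 held at least 1. Among the proximal and Y genes 9 held 3 or more, and among the distal genes 2 did. Without Myo81F, which alone held 42, the other 13 genes had 1.69 per 100 kb. Gene by gene, the median of the 14 was 1.38 per 100 kb and that of the 62 distal genes was 0. The 14 ran from 0 in Snap25 to 5.92 in AGO3, where 5 of the 8 boundaries were bins of 1 run.

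**Figure D4:**
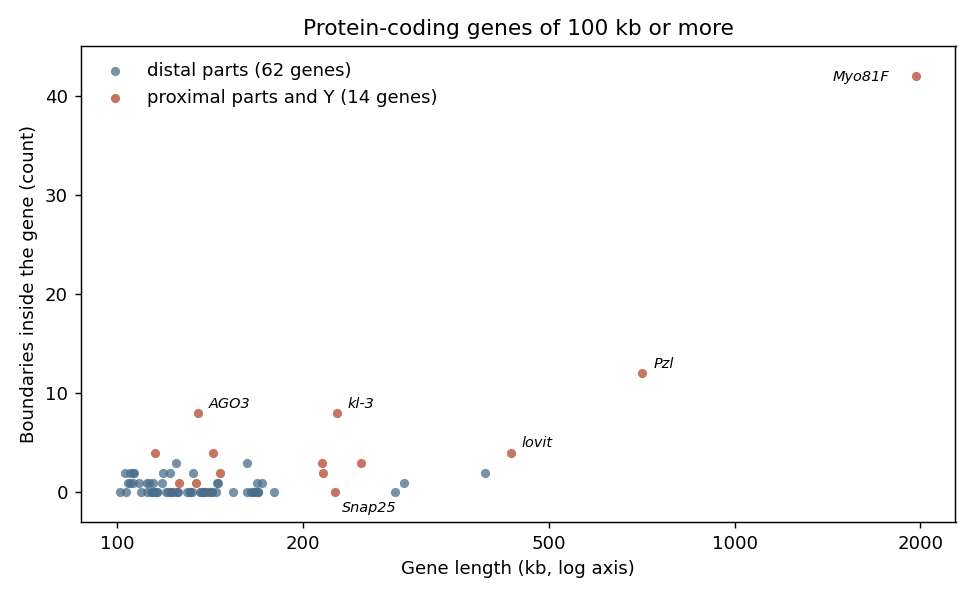
Number of boundaries inside each protein-coding gene of at least 100 kb against its length (kb, log axis), for 14 genes of the proximal parts and Y (red) and 62 of the distal parts (blue). Myo81F stands apart with 42, Pzl has 12, and no blue point is above 3, while the red point of Snap25 is at 0.

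Myo81F, at 567076 to 2532932 on 3R, is 1966 kb long and held 12.5% of all members, as its share of the regions' length (12.5%) gives. Its 42 boundaries had a median strength of 1.87, ran from 1.27 to 7.81, and included 9 over 3. Neither end of the gene had a boundary within 1 kb. They formed clusters, with a median spacing of 5.20 kb and a largest of 220.0 kb, and 12 spacings were close pairs. The strongest pair stood near the right end of the gene, at 2519601 with 5.93 and at 2524001 with 7.81, and the second of these ranked 8 in the whole list. A further boundary at 1923201 had 4.70. The 4 runs inside the gene held 12 of the boundaries, at strengths of 1.27, 1.32, 1.82 and 1.87, all at or below the median of the gene.

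**Figure D5:**
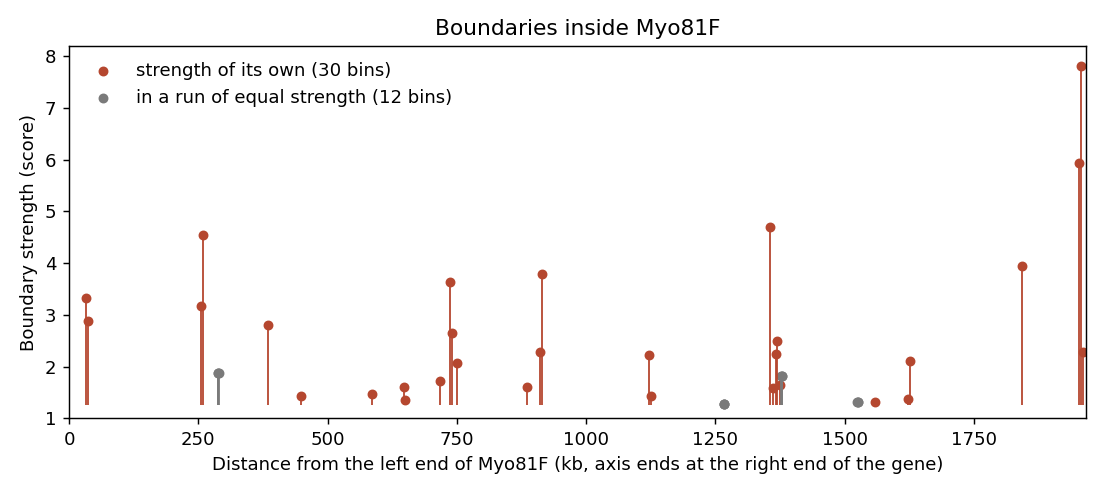
Strength (deposited score) of the 42 boundaries inside Myo81F against distance from the left end of the gene (kb); grey points are the 12 bins in runs of equal strength, which overlap at this scale, and red points the other 30. The boundaries form clusters with gaps of up to 220.0 kb, and the 2 highest, 5.93 and 7.81, stand near the right end.

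The 567 kb of 3R to the left of Myo81F contain no gene of the annotation and held 22 boundaries, or 38.8 per Mb. Their median was 2.26, and 7 were over 3. The boundary at 306401 had 9.50, the second highest strength of the list, and lay 260276 bp from Myo81F, while that at 82401 had 4.66. To the right of Myo81F, up to the gene CG12581, 32 boundaries had a median of 2.00, with 16 of them inside gene bodies and 6 at gene ends. Pzl, of 709 kb, contained 12 of these at 1.26 to 2.86, none over 3, and a boundary of 3.29 at 2553601 lay 162 bp outside its left end. Parp1, the poly(ADP-ribose) polymerase gene, held 1 boundary at 3.13 and had a run of 1.64 at its right end. CG42402 held a run of 3 bins at 3.70.

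Beyond CG12581 the boundaries of 3R lay at gene ends. The boundary 232 bp from that gene, at 4174001, had a strength of 4.63. From this boundary to the limit of 4.5 Mb, 326 kb held 53 protein-coding genes and 7 boundaries, with a median of 1.43 and no run. All 7 were at gene ends, the first of them by the choice of where the stretch starts. The share of bins near a gene end was not computed for this gene-rich stretch, so the 7 have no background share beside them. The genes there, named after their values were seen, included Suv3 and Vps24 at a shared boundary of 1.43, Skp2 between boundaries of 1.58 and 1.34, and eIF3a, a subunit of a translation initiation factor, at 1.42. Without these 7, 22 of 330 members (6.67%) were near a gene end.

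The protein-coding genes of Y are few and several carry giant introns. Of 12 listed Y genes in the coordinates, 7 had a boundary in the body or within 1 kb: kl-2, kl-3, kl-5, ORY, PRY, WDY and Ppr-Y. Over all protein-coding genes of Y in the annotation 8 of 23 (34.8%) did, and over all regions 49 of 191 (25.7%). No boundary lay at CCY, ARY, FDY, Pp1-Y1 or Pp1-Y2. The genes kl-5, kl-3 and kl-2 encode heavy chains of the axonemal dyneins that drive the sperm tail. In kl-5, of 115 kb, the 4 boundaries had 2.45, 4.72, 5.61 and 1.75 in order of position. In kl-3, of 227 kb, 8 boundaries ran from 1.37 to 6.53 with a median of 4.28, and 5 were over 3. Of these 5, 3 were adjacent bins of 1 run at 6.53, which the median also counts 3 times. In kl-2, of 91.1 kb, both boundaries were over 3, at 3.78 and 3.17. High strengths were therefore present in all the dynein genes, beside low ones in kl-5 and kl-3.

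ORY, which encodes a coiled-coil protein, contained the strongest boundary of the list, 10.49 at 3566801 to 3567200, 5056 bp from the gene's nearer end. Its other boundary, of 3.87 at 3562401, lay 656 bp from the left end. In contrast, WDY held 3 boundaries of 1.27 to 1.73, Ppr-Y 3 of 1.65 to 2.00 and PRY 2, of 1.27 and 1.29. The Y genes thus spanned most of the range of strengths seen in the whole list. The fifth strongest boundary of Y, at 2829201 with 7.94, was 192689 bp from the nearest gene, FDY.

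The Su(Ste) repeats held many boundaries. These noncoding genes are precursors of piRNAs that silence the X-linked Stellate repeats in the testis. The stretch that holds 24 of them with 1 kb on each side, at 868892 to 1041412 on Y, was set by the annotation after the values had been seen. It contained 20 boundaries, or 116 per Mb, against 20.03 per Mb on the rest of Y. Their median was 3.10, with quartiles of 2.37 and 4.85, and 11 were over 3, while the other 70 boundaries of Y had a median of 2.00 with 24 over 3. Neighbours in the stretch stood 2.4 to 25.2 kb apart with a median of 5.60 kb, and none were in a run. Of all 27 Su(Ste) genes, 12 had a boundary within 1 kb. Among the protein-coding genes of Y, 2 of 23 (8.70%) had one within 1 kb of an end. The share over all noncoding genes was not computed. Because boundaries were dense throughout the stretch, the count of 12 does not tie them to these genes.

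Strengths along the repeats were uneven. The boundary at 869201 had 8.45 and lay 292 bp from Su(Ste):CR42422, and that at 980801 had 8.93 and lay 517 bp from Su(Ste):CR42432. Others next to such genes were weak, as at 939201 with 1.40, 336 bp from Su(Ste):CR42427. A boundary of 8.41 at 862001 stood outside the stretch, 7492 bp from the nearest repeat. Copies of these repeats share much of their sequence, so reads can fit more than 1 copy. The sources do not state how such reads were placed, and its part in these values was not tested.

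Other repeated genes of Y, examined after the values were seen, held fewer boundaries per length than the Su(Ste) stretch. The 92.0 kb of Mst77Y genes, related to a gene for a sperm chromatin protein, held no boundary. The 213 kb with CG12717-related pseudogenes held 9, at 1.36 to 5.68 with a median of 1.85. Their density of 42.3 per Mb was above the 20.03 per Mb of all of Y outside the Su(Ste) stretch.

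On X, 32 of the 33 boundaries lay neither within 1 kb of an end of a protein-coding gene nor inside a gene body. Of the bins of this region, 9.44% were as near to an end and 17.3% lay inside bodies. The count depends on the distance, as 15.2% of the boundaries lay within 2 kb of an end. From the limit of 22.5 Mb to the end of ATbp, a stretch with 28 protein-coding genes, 10 boundaries had a median of 2.09, with 4 over 3. Among the strongest of them, one of 5.99 at 23021201 lay 1298 bp from zyd, a gene for a potassium-dependent sodium and calcium exchanger, and one of 4.47 at 23104401 lay 1203 bp from ATbp. A weak boundary of 1.39 at 23007201 was as close to a gene, 1166 bp from FucTC. The 430 kb beyond ATbp have no protein-coding gene in the annotation and held 23 boundaries, or 53.5 per Mb, with a median of 2.27. The pair of equal bins at 6.71 lay here, 27072 bp from the nearest annotated gene, a 2S ribosomal RNA gene. A boundary of 4.83 stood at 23398801.

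On 2L the 10 boundaries up to Slmap had a median of 1.54, and the 18 beyond its right end had 2.90. Of these 18, 10 were in runs, among them 5 bins at 2.92 and 3 bins at 2.90. The median counts each such bin, so it rests on repeated values, and it was not computed with each run counted once. The strongest boundaries of the region were at 22232801 with 3.40, 6716 bp from Nubpl, and at 23320801 with 3.15, 7223 bp from the mitochondrial import gene Tim23. Boundaries at gene ends stood at CG3651 with 2.28, at Clamp, which encodes a zinc finger protein of dosage compensation, with 2.02, and at Slmap with 1.97 and 2.92. These were all 4 of the region. CG40006, of 134 kb, held 1 boundary of 2.17, and Marf1 held 1 of 1.30.

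On 3L the strongest boundary, of 5.69 at 23736801, lay 760 bp from CG17698, and its close partner 4.40 kb to the left had 2.97. Next came boundaries inside l(3)80Fg with 3.47, inside nAChRalpha4, a nicotinic acetylcholine receptor subunit gene, with 3.33, and inside l(3)80Fj with 3.28. Each of these had a second boundary in the same gene at 4.00 or 4.40 kb. AGO3 held 8 boundaries of 1.63 to 2.05, and lovit, a neurotransmitter transporter gene of 434 kb, held 4 of 1.46 to 2.97. The RNA helicase gene Dbp80 held 4 of 1.91 to 2.82. Snap25, a gene of synaptic vesicle fusion, is 225 kb long and held none.

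Of 16 listed classic genes of proximal heterochromatin that lie in the coordinates, 7 had a boundary in the body or within 1 kb, where 25.7% of all protein-coding genes of the regions did. Beside Myo81F, Pzl, Parp1 and Dbp80 these were nvd with 1.40, the histone H3 lysine 4 methyltransferase gene Set1 with 1.69 inside and 1.65 beside it, and vtd, the gene of the cohesin subunit Rad21, with 1.33 to 1.50. No boundary lay in or within 1 kb of lt, cta, RpL5, Cht10, RpL15, Snap25, su(f), tio or CG40439. Among ribosomal protein genes 1 of 4 had one, RpL10 with 1.31, and RpL5, RpL21 and RpL15 had none.

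Loops were rare where boundaries were dense. Only 6 of the 313 loops had both anchors in these coordinates, 1 on 2L and 5 on 3R, or 0.383 per Mb, against 248 and 2.61 per Mb in the distal parts. No loop had an anchor on Y or in the proximal parts of 3L and X. There were 56.2 boundaries for each loop, against 5.04 in the distal parts. An anchor lay within 2 kb of a boundary in 4 of the 6, and in 53 of the 248 distal loops (21.4%). With 6 loops these shares carry little weight.

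The loop on 2L had the highest value of the whole table, a deposited score of 653 against 317 for the next. It joined 23164801 to 23165600, inside CG12567, to an intergenic anchor at 23332801 to 23333600, over 168 kb, and it spanned 2 boundaries. The genes Gpb5, a glycoprotein hormone subunit gene, and Tim23 lay between its anchors, and the right anchor was 8000 bp from the nearest boundary, of 2.11 at 23324401. The value is given as deposited by the authors. Neither the contact map nor the read counts behind it were examined here, so whether it depends on how reads were placed in this repeat-rich sequence was not tested.

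The loops on 3R had ordinary values, from 6.11 to 12.9. Within Myo81F a loop of 10.8 spanned 19.2 kb, from 1431201 to 1451200, and its right anchor lay 800 bp from a boundary of 1.61. A set of 3 loops converged on the boundary at CG12581, with right anchors 1200, 2000 and 4400 bp from it. The left anchors of the first and the last lay in CG42402 and gave values of 12.9 over 76.0 kb and 11.5 over 85.6 kb. The left anchor of the other lay in Gfat1, the gene of the first enzyme of hexosamine synthesis, with a value of 6.11 over 39.2 kb. Only the longest of these spanned boundaries, the 3 bins of the run in CG42402. The fifth loop joined CG31522 to CG31523 over 24.8 kb with a value of 7.85, and its right anchor lay 400 bp from the boundary of 1.85 at 4479201.

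A further 3 loops had 1 anchor inside, all on 2L at tio, a zinc finger gene. Their partners outside the limit were the paralogous gene tsh, with a value of 60.4 over 196 kb, and CG11629, with 67.2 over 124.8 kb and 28.4 over 119.2 kb. These loops spanned no boundary.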

How the data were processed

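Boundaries and loops of the yw line were taken from the lists deposited by the authors. Per the submitters' processing notes, BWA 0.7.17 was the aligner and dm6 the build. Neither the boundary caller nor any pooling of the 2 control samples is stated. Boundary strength and loop value are scores that the authors deposited without naming a scale, and the track line of the boundary list names 10 kb and 1.25. The loop table also gives a probability of enrichment, deposited as a fraction and not used in any comparison. Genes (17796 placed, 13944 protein-coding) came from RefSeq's Release 6 table, the assembly of dm6, which gives no strand, so either end counted as a gene end. Distances were counted between the bin and the gene end. Region lengths ran to the last gene, boundary or loop. Counts, medians and quartiles were computed with Python 3.11.15 and pandas 2.3.3, and the functions for runs, spacings and gene distances were checked on simulated data. No test was possible with 1 value per feature. No sequence was used, and the planned motif counts were not run.

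Members and gene lists were chosen with earlier results of these data known. Genes named are those at or nearest the 5 strongest boundaries of each region, those whose bodies hold the most, those at loop anchors and beside long runs, and list members; the other genes named, among them those beyond CG12581, those at gene ends on 2L, and the stretches of Y, 2L, 3R and X, were chosen after their values were seen. Alternatives varied strength, runs, repeats, limits and gene distance.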

Additional observations from a re-analysis of the deposited data

How the results depend on the processing

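No paired analysis was possible because each list holds 1 value per feature and no column per sample. Under every alternative run for them, the pooled members kept the higher strength, the shorter spacing, the larger share in runs and the lower share near gene ends than the distal arms. Of 32 pooled values, 25 stayed within a 95% binomial interval of the main value or, for runs and loops, changed by at most 1.5 times. That interval treats boundaries as independent draws, which the bins of a run are not. It served only as a yardstick and is not an error of any value. With only boundaries at or above the list's median strength, the median strength was 2.49 (distal 1.95). With each run counted once, the median spacing was 21.4 kb (distal 42.8 kb). The share near a gene end was 3.86% for an end inside the bin (distal 53.6%), 12.8% within 2 kb (89.0%) and 15.1% for genes of any kind (88.4%). With limits 500 kb nearer the centromere 2 loops remained inside, and with limits 500 kb farther from it there were 14. Alternatives added after the data were seen left out Y (median strength 1.91, spacing 12 kb, 73 boundaries in runs, 10.9% near gene ends) or the bins in Myo81F (2.03, 12 kb, 70 and 9.83%). Without the bins in Myo81F, 21.3% of the remaining 3R boundaries were near gene ends. Close pairs made up 26.2% of spacings when the range was widened to 2.0 to 6.0 kb (distal 7.62%). The depth of the maps is unknown, so features below the lists' thresholds could not be seen.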
